A study of Mus musculus with 8 samples.

Results

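The insulin-like growth factors (IGFs) and their binding proteins (IGFBPs) were followed on 8 single-colour expression arrays of mouse olfactory mucosa, the lining of the nose in which the smell-sensing neurons lie. The 8 genes on the list were Igf1, Igf2, Igfbp2, Igfbp3, Igfbp4, Igfbp5, Igfbp6 and Igfbp7, and every probe set carrying one of these symbols in the platform annotation was taken. A single one of these symbols was carried by 12 of the 12488 probe sets, and they covered 7 of the 8 genes. A further probe set was assigned to both Tmem119 and Igfbp5, so no probe set could be named for Igfbp5 alone. All mice had lost both olfactory bulbs, the target of the olfactory neurons, by surgery. They were labelled C57BL/6 or Ccl3-/-, the second lacking the macrophage chemokine CCL3 (also called MIP-1a), and were injected with carrier or with CCL3. Each of the 4 groups had 2 arrays, numbered replicate 1 and replicate 2. Age, time after surgery, dose, route and the number of animals behind an array are not given in the labels. Whether replicates were separate animals is not labelled either, and p-values therefore measure a spread between arrays that may be technical. The series concerns the part of CCL3 in macrophage recruitment after loss of the bulb.

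IGF1 and IGF2 are small secreted growth factors related to insulin. Both act through the IGF1 receptor, a tyrosine kinase that signals through IRS adaptors, phosphoinositide 3-kinase and AKT, while the IGF2 receptor carries IGF2 to lysosomes for breakdown. IGFBPs hold the ligands in extracellular fluid and on matrix, and proteases that cut an IGFBP set its ligand free. In the developing mouse, IGF signalling takes part in guiding olfactory axons to the bulb.

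The members lie on 6 chromosomes: Igf1 on chromosome 10, Igf2 on 7, Igfbp2 and Igfbp5 on 1, Igfbp3 and Igfbp4 on 11, Igfbp6 on 15 and Igfbp7 on 5. In the RefSeq gene table of build GRCm38.p6 no protein-coding gene lies between Igfbp2 and Igfbp5, nor between Igf2 and the imprinted H19 gene. RefSeq start-site windows (250 bases before to 50 after a start, GRCm38.p6) matched all 8 genes, with 12 windows in all. The windows below belong to the pairs of members whose levels ran most alike over the arrays, Igfbp2 with Igfbp4 and Igf2 with Igfbp6. The pairs were found with the brightest tested probe set of each gene. The other tested Igfbp4 probe set correlated with the one used at r = 0.38. They are chr1:72824230-72824529 (plus strand), chr11:99040994-99041293 (plus), chr7:142657447-142657746 (minus) and chr15:102143936-102144235 (plus). Igfbp2 has 2 such windows and Igf2 has 4, of which the one with the most GC boxes is shown. Capitals mark 2 short motifs searched on both strands, GGGCGG (the GC box) and TATAAA (the TATA box).
Igfbp2: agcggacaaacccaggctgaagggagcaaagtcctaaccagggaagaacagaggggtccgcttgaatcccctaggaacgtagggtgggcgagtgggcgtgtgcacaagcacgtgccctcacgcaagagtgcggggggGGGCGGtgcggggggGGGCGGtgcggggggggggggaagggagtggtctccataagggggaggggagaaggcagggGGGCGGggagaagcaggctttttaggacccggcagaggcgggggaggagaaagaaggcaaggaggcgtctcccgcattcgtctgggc
Igfbp4: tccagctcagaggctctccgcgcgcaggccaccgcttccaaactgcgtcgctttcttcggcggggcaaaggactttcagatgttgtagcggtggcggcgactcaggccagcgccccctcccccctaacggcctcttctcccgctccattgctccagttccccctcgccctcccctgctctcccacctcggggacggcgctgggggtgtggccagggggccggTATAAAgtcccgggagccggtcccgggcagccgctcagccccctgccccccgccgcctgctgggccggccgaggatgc
Igf2: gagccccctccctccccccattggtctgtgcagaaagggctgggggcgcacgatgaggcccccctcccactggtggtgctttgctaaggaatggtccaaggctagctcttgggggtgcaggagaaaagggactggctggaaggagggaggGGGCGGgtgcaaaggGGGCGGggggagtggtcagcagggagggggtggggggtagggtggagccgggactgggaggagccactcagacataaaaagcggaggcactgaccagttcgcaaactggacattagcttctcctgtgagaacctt
Igfbp6: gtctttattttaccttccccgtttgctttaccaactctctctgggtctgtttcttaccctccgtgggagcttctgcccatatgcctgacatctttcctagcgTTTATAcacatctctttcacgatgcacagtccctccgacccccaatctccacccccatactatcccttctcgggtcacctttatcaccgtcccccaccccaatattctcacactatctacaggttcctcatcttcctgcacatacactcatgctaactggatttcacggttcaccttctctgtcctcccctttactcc
The Igfbp2 window held 3 GC boxes and 18 CpG dinucleotides, and the Igf2 window 2 GC boxes and 7 CpG. The Igfbp4 window held 1 TATAAA and 27 CpG, and the Igfbp6 window 1 TATAAA, read on the opposite strand, and 8 CpG. Neither pair shared a motif. Over all windows of the members, 4 of 12 held a GC box, against 35.7% of 32851 mouse windows, and 2 of 12 held TATAAA, against 13.6%. A match of letters is a description and not a bound site.

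The array medians ran from 581.4 to 660.3 intensity units (arbitrary), and precision is limited by having 2 arrays a group. The defining genes of olfactory neurons were bright on all arrays, with Omp at a lowest, median and highest value of 4251.1, 13860.25 and 21778.7. Ccl3 went against its label: its probe set read 768 ± 46.0 (SD, n = 4) on arrays labelled Ccl3-/- and 275 ± 103 (SD, n = 4) on those labelled C57BL/6. Where its probes lie relative to the deleted part is not given, so genotype below means the label. C57BL/6 carrier replicate 1 stood apart from the rest, with a Gapdh 3'/5' probe ratio, a measure of RNA quality, of 2.59 against 0.755 to 1.31 on the other 7 arrays. The actin 3'/5' ratio went the other way and was lowest on this array, at 1.58 against 1.61 to 2.17. RNA quality of this array was therefore not settled by these ratios. The root mean square deviation of this array from the gene means was 0.52 on the log2 scale, against 0.26 to 0.42.

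Of the 12 named probe sets, 9 passed the filter for dim values (at least 2 arrays above 362.7) and were tested with limma among 8150 probe sets. None of the 9 passed an adjusted p of 0.05 (Benjamini-Hochberg) in any of the 7 comparisons, and the percentage of all probe sets that passed was 0 in each. Differences below are on the log2(value + 102.3) scale, which understates those of dim probe sets, with limma's standard error. Folds given beside these differences are on the same scale.

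Igf1, the ligand driven by growth hormone in liver and also made locally in many tissues, had 2 tested probe sets. The brighter (95545_at) read 3235.9 and 3386.7 on the C57BL/6 carrier arrays and 2486.1 and 4147.5 on the carrier arrays labelled Ccl3-/-. After CCL3 it read 2688 and 3700.3 in C57BL/6 and 3451.6 and 2735.2 in Ccl3-/-. All 4 groups overlapped, and their means lay between 3093 and 3317, so no order of the groups could be read beyond the spread. Its difference after CCL3 in Ccl3-/- was -0.06 ± 0.30, with a 95% interval from -0.74 to 0.62 and an adjusted p of 1.000.

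The dimmer Igf1 probe set (95546_g_at) behaved otherwise. It read 208.6 and 448.3 with carrier in C57BL/6, 55.4 and 272.5 with carrier in Ccl3-/-, 440.5 and 385.9 with CCL3 in C57BL/6, and 614.3 and 568.2 with CCL3 in Ccl3-/-. Both CCL3 arrays labelled Ccl3-/- lay above every other array, and the array labelled Ccl3-/- carrier replicate 1 lay lowest. In Ccl3-/- the difference between CCL3 and carrier was 1.51 ± 0.46 (95% interval 0.48 to 2.54), a 2.85-fold higher value, with a limma p of 0.00848 before and 0.830 after adjustment. In C57BL/6 it was 0.32 ± 0.46, and -0.10 without C57BL/6 carrier replicate 1. The interaction, which tests the difference between those responses, was 1.20 ± 0.65 with an adjusted p of 0.908. Over the arrays left out in turn, this interaction of Igf1 ran from 0.57 without Ccl3-/- carrier replicate 1 to 1.82 without its replicate 2. Averaged over genotypes, the CCL3 difference was 0.91 ± 0.33, with a limma p of 0.0190 before and 0.969 after adjustment. The carrier arrays labelled Ccl3-/- differed from each other by 4.92-fold. Without Ccl3-/- carrier replicate 1 the Igf1 difference after CCL3 in Ccl3-/- was 0.89 and the average 0.60, the first with a limma p of 0.0772 before adjustment. The 2 Igf1 probe sets correlated at r = 0.29 over the 8 arrays, so they did not give one account of the gene.

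Igf2, the fetal growth factor expressed from the paternal allele, had 1 bright probe set (98623_g_at). Its values were 14282.9 and 9351 with carrier in C57BL/6, and 7549.8 and 8781.7 with carrier in Ccl3-/-. With CCL3 they were 10954.8 and 9951.2 in C57BL/6 and 12752.7 and 12040.7 in Ccl3-/-. Both carrier arrays labelled Ccl3-/- lay below the other 6 arrays. By group mean the order was Ccl3-/- with CCL3 (12397 ± 503, SD, n = 2), C57BL/6 with carrier (11817 ± 3487), C57BL/6 with CCL3 (10453 ± 710) and Ccl3-/- with carrier (8166 ± 871). The C57BL/6 carrier arrays overlapped both neighbours in that order. In Ccl3-/- the CCL3 minus carrier difference was 0.60 ± 0.26 (95% interval 0.01 to 1.19), a 1.52-fold higher value, with a limma p of 0.0461 before and 0.940 after adjustment. In C57BL/6 it was -0.15 ± 0.26, and the difference between the responses was 0.75 ± 0.37, with an adjusted p of 0.908. Leaving out C57BL/6 carrier replicate 1 gave an Igf2 difference in C57BL/6 of 0.16 and made the difference between the responses 0.44. Igf2 was lower in Ccl3-/- than in C57BL/6 after carrier, by a log2 difference of -0.50 ± 0.26 (adjusted p = 0.479), and by -0.20 without that array. After CCL3 the genotype difference was 0.24 ± 0.26.

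**Figure D1:**
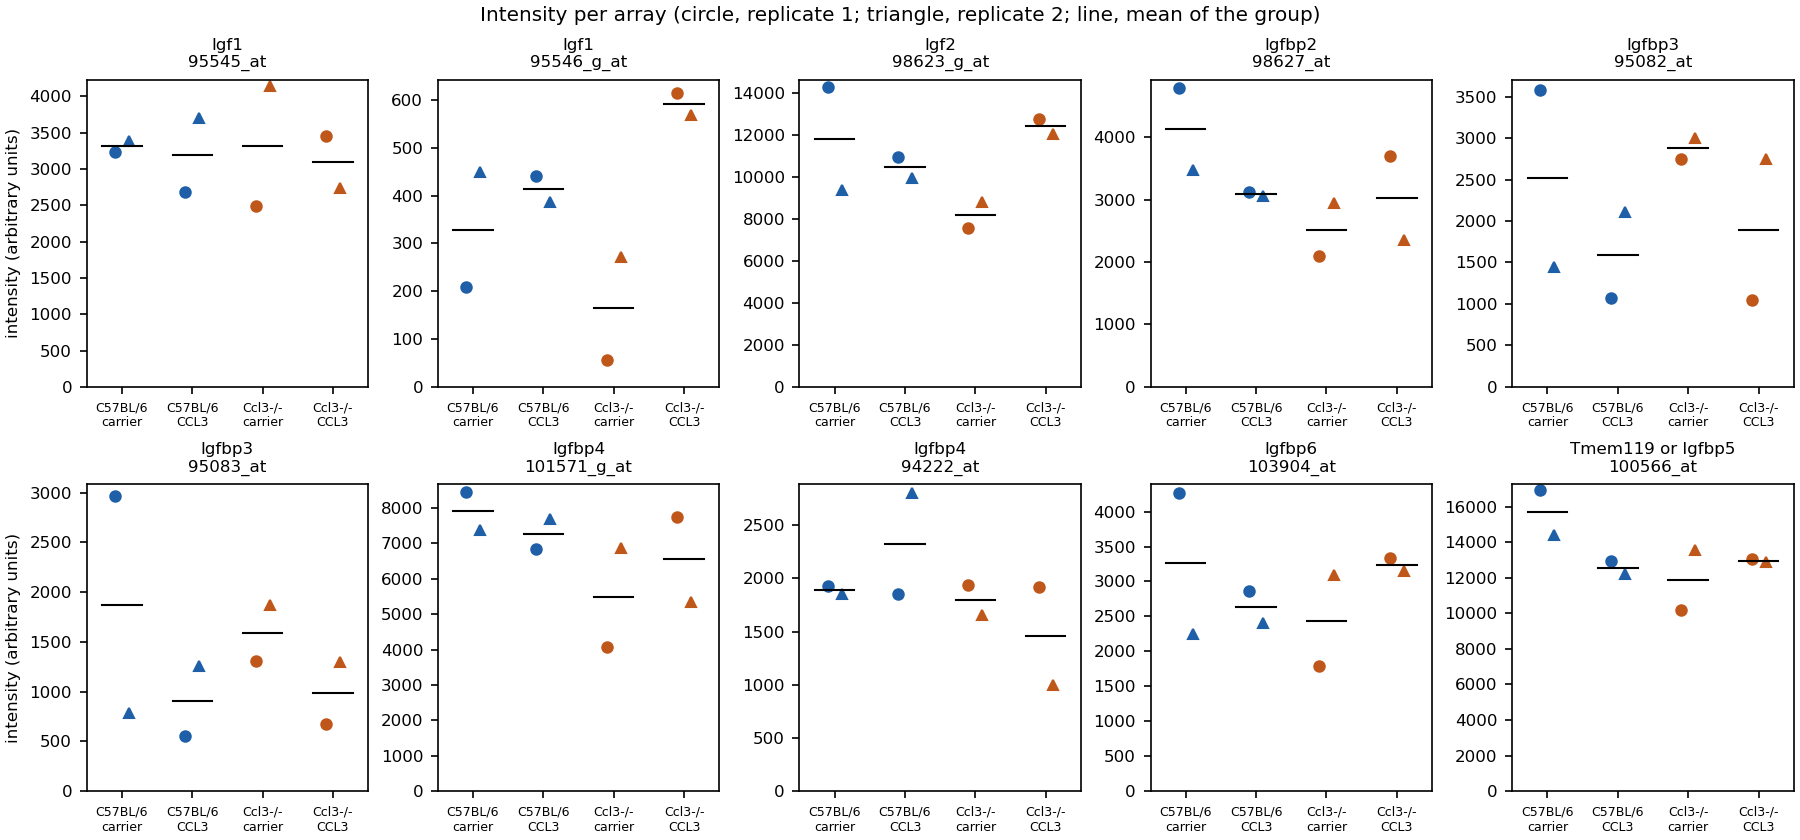
Intensity in arbitrary units on a linear axis from 0 for the 9 tested probe sets named for one member and the probe set assigned to Tmem119 and Igfbp5, by group. Circles are replicate 1, triangles replicate 2 and lines the mean of 2 arrays; the 2 Igf2 values labelled Ccl3-/- with carrier, 7549.8 and 8781.7, lie below the other 6.

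Igfbp2, a binding protein that favours IGF2 and is abundant in fetal tissue and brain, was measured by 98627_at. It read 4784.3 and 3475.5 with carrier in C57BL/6 and 2098.7 and 2940.7 with carrier in Ccl3-/-. With CCL3 it read 3120 and 3049.6 in C57BL/6 and 3700.4 and 2348.2 in Ccl3-/-. The carrier groups did not overlap, and the CCL3 arrays of both genotypes lay between or within their ranges. After carrier, the genotype difference was -0.69 ± 0.30 (95% interval -1.37 to -0.01), a 1.62-fold lower value in Ccl3-/-, with a limma p of 0.0466 before and 0.437 after adjustment. Leaving out C57BL/6 carrier replicate 1 gave -0.47 for Igfbp2, with a limma p of 0.198 before adjustment, and leaving out Ccl3-/- carrier replicate 1 gave -0.46. After CCL3 the genotype difference was -0.06 ± 0.30.

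Igfbp4, which mostly holds IGFs back from their receptor and is cut by the protease PAPP-A, had 2 tested probe sets. The brighter (101571_g_at) read 8459.8 and 7367 with carrier in C57BL/6, and 4084.6 and 6857 with carrier in Ccl3-/-. With CCL3 it read 6831.8 and 7689.8 in C57BL/6 and 7742.1 and 5354.2 in Ccl3-/-. The carrier groups did not overlap, and the genotype difference after carrier was -0.57 ± 0.31, with an adjusted p of 0.489. It was -0.47 for Igfbp4 without C57BL/6 carrier replicate 1, but -0.20 without Ccl3-/- carrier replicate 1. The other probe set (94222_at) read 1933.1 and 1849.2, then 1942.2 and 1656.8, in the same carrier groups, with a difference of -0.07 ± 0.33. With CCL3 it read 1854.4 and 2798.8 in C57BL/6 and 1917.8 and 1001.5 in Ccl3-/-, a genotype difference of -0.67 ± 0.33 (adjusted p = 1.000). That became -0.24 without Ccl3-/- CCL3 replicate 2 and -0.39 without C57BL/6 CCL3 replicate 2. The Igfbp4 probe sets correlated at r = 0.38. Averaged over both injections, each gave -0.37 for Ccl3-/- minus C57BL/6, with standard errors of 0.22 and 0.23. With one array left out these averages of Igfbp4 ran from -0.55 to -0.18 and from -0.59 to -0.15.

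Igfbp6, which binds IGF2 in preference to IGF1, was measured by 103904_at. It read 4272.1 and 2254.4 with carrier in C57BL/6, 1784.8 and 3090.3 with carrier in Ccl3-/-, 2864.4 and 2408.1 with CCL3 in C57BL/6, and 3330.3 and 3148.4 with CCL3 in Ccl3-/-. The carrier arrays of both genotypes spread widely and overlapped. The CCL3 arrays did not overlap, with Ccl3-/- above C57BL/6, at a difference of 0.29 ± 0.35 (adjusted p = 1.000). In Ccl3-/- the CCL3 minus carrier difference was 0.44 ± 0.35 (adjusted p = 0.967), and both CCL3 arrays lay above both carrier arrays. Without Ccl3-/- carrier replicate 1 that Igfbp6 difference was 0.07. After carrier the genotype difference was -0.39 ± 0.35 (adjusted p = 0.658), and for Igfbp6 0.06 without C57BL/6 carrier replicate 1 and -0.01 without Ccl3-/- carrier replicate 1.

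Igfbp3, the main IGF carrier of the circulation, which also acts on cells without IGF, had 2 tested probe sets that ran together (r = 0.94 over 8 arrays). The brighter (95082_at) read 3577.6 and 1447.7 with carrier in C57BL/6, and 2748.8 and 3004.5 with carrier in Ccl3-/-. With CCL3 it read 1071.7 and 2103.6 in C57BL/6, and 1050.6 and 2741.7 in Ccl3-/-. The dimmer (95083_at) read 2967.8 and 784.2, then 1307.5 and 1868.2 with carrier, and 552.6 and 1257.5, then 676.9 and 1302 with CCL3, in the same order of genotypes. On both, the CCL3 arrays labelled Ccl3-/- lay below the carrier arrays of that label, while in C57BL/6 the groups overlapped. Averaged over genotypes, CCL3 minus carrier was -0.64 ± 0.36 and -0.74 ± 0.40, each with an adjusted p of 0.969. These Igfbp3 averages were -0.33 and -0.29 without C57BL/6 carrier replicate 1, and -0.32 and -0.53 without Ccl3-/- CCL3 replicate 1. In C57BL/6 alone the differences were -0.57 ± 0.51 and -0.81 ± 0.56. Without that array, where both Igfbp3 probe sets were highest, those became 0.05 and 0.09, so that array set the direction in C57BL/6. In Ccl3-/- they were -0.72 ± 0.51 and -0.67 ± 0.56, with adjusted p of 0.964 and 0.970, and without Ccl3-/- CCL3 replicate 1 they were -0.07 and -0.25.

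The probe set assigned to Tmem119, a bone and microglia membrane protein gene, and to Igfbp5, an IGFBP of connective tissue and bone, was bright (100566_at). Its lowest, median and highest values were 10194.7, 13005.15 and 16945.8. It was highest on C57BL/6 carrier replicate 1 and lowest on Ccl3-/- carrier replicate 1, with a genotype difference after carrier of -0.41 ± 0.24 (adjusted p = 0.516) and of 0.05 ± 0.24 after CCL3. The carrier difference of Tmem119;Igfbp5 was -0.29 without the first of those arrays and -0.20 without the second. Which of the genes gave the signal cannot be told apart on this array. The remaining 3 named probe sets were dim and untested. Igf2 98622_at read 23.5 to 134.5, Igfbp4 101570_at 22.2 to 205.7, and Igfbp7 160527_at, the only probe set of this low-affinity IGF binder of vessel walls, 140.9 to 421.3. Igfbp7 exceeded the filter on 1 array, C57BL/6 carrier replicate 1, and in a fit with no filter these 3 gave adjusted p between 0.566 and 1.000.

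**Figure D2:**
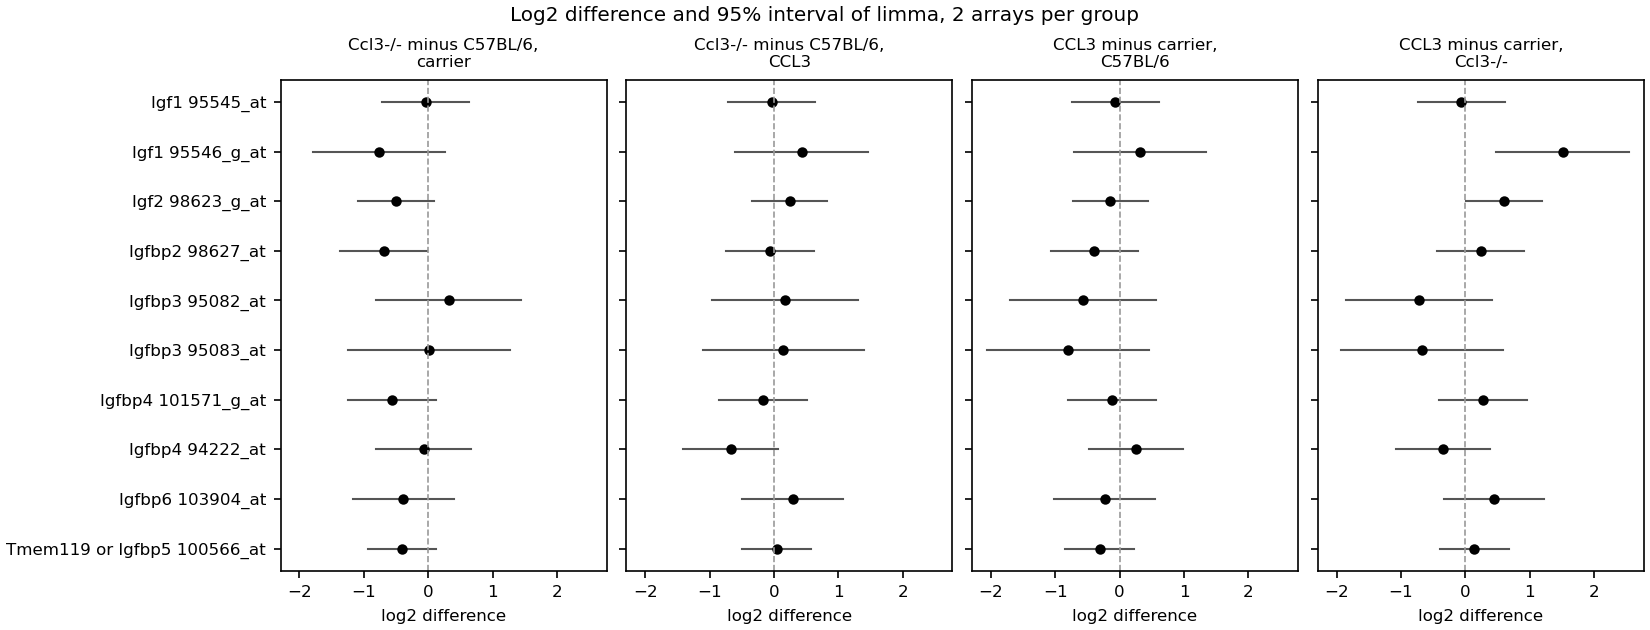
Log2 difference (points) and 95% interval of limma (lines) for each probe set in the 4 pairwise comparisons, with 2 arrays per group and a dashed line at 0. The interval of Igf1 95546_g_at in Ccl3-/- runs from 0.48 to 2.54, those of Igf2 in Ccl3-/- and of Igfbp2 after carrier also lie to one side of 0, and the rest cross it.

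After carrier, 7 of the 9 tested probe sets were lower in Ccl3-/- and 2 higher, with a median difference of -0.39 against -0.03 for all 8150. At an unadjusted p under 0.05, 1 of 9 was lower, against 6.4% of all probe sets. After CCL3 the genotype split was 5 higher and 4 lower, with a median of 0.15 against 0.02, and 0 of 9 passed that level where 1.48% of all did. In Ccl3-/-, CCL3 minus carrier was above 0 for 5 of 9 (median 0.24 against 0.03), and 2 of 9 were higher at an unadjusted p under 0.05, against 2.77% of all. In C57BL/6, 7 of 9 were lower with CCL3 (median -0.15 against -0.02), with 0 of 9 at that level and 4.29% of all. The interaction had 7 of 9 above 0 (median 0.40 against 0.04), with 0 of 9 at that level and 5.06% of all. For the averages, 0 of 9 reached it by genotype, where 5.93% of all did. By CCL3, 1 of 9 was higher at that level, against 2.36% of all. Without C57BL/6 carrier replicate 1, 5 of 9 were higher with CCL3 in C57BL/6 (median 0.05), and the interaction had 6 of 9 above 0 (median 0.23). With all arrays, 52.1% of the 8150 probe sets were lower in Ccl3-/- after carrier and 52.8% higher after CCL3. With CCL3, 54.0% of them were higher in Ccl3-/- and 51.8% lower in C57BL/6, and the interaction was above 0 for 52.7%. These comparisons share arrays with one another, and probe sets of one gene are not independent.

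Over the 9 probe sets, the median genotype difference after carrier was smaller without either of a pair of arrays. Single probe sets did not all follow. C57BL/6 carrier replicate 1 was the highest of 8 arrays for 6 of the 9 probe sets, as it was for 20.9% of all 8150, and Ccl3-/- carrier replicate 1 was the lowest for 6 of 9, as it was for 14.6% of all. The median deviation of the members from their own mean was 0.44 and -0.47 on those arrays, and between 0.03 and 0.22 on the other 6. Without C57BL/6 carrier replicate 1 the median genotype difference after carrier was -0.07 with 6 of 9 lower, and without Ccl3-/- carrier replicate 1 it was -0.14 with 6 of 9 lower. With both left out, an alternative chosen after seeing the data, it was -0.09 with 5 of 9 lower. Without C57BL/6 carrier replicate 2 it was -0.67 with 9 of 9 lower. Replicates of one group differed by a median of 0.61 for the members in C57BL/6 with carrier, 0.48 in Ccl3-/- with carrier and 0.52 in Ccl3-/- with CCL3, against 0.43, 0.33 and 0.22 for all probe sets. In C57BL/6 with CCL3 the members' median was 0.24, against 0.27 for all.

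**Figure D3:**
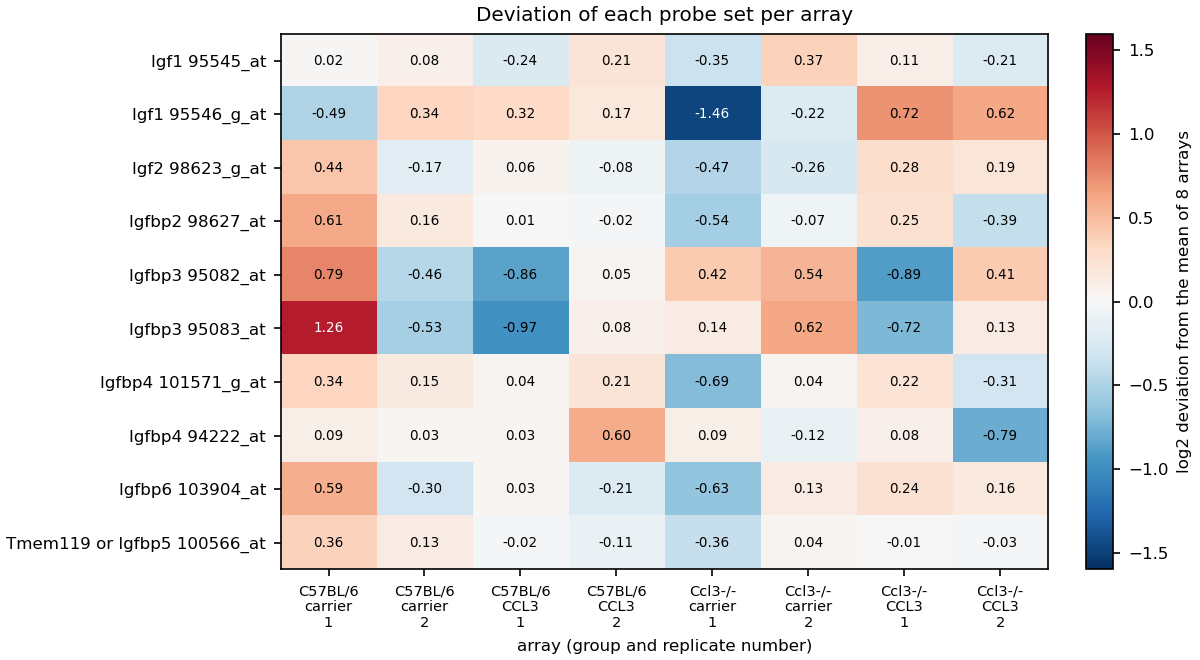
Log2 deviation of each probe set on each array from its mean over the 8 arrays, as numbers and colours from blue (below the mean) to red (above). The column of C57BL/6 carrier replicate 1 is above the mean for 8 of the 9 probe sets named for one member, and that of Ccl3-/- carrier replicate 1 is below for 6 of 9.

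Summed levels of cell type markers also differed between these arrays. The 11 ensheathing and Schwann glia genes on the array summed to 90054.8 on C57BL/6 carrier replicate 1 and to 59280.4 on Ccl3-/- carrier replicate 1, the highest and the lowest of 8 arrays, and the other 6 lay between 64488.8 and 79318.8. Most of that sum was Apoe, a lipid carrier gene of glia and macrophages, at 71275.7 and 36813.5 on those arrays. By brightest probe set, the other tested glia genes did not go one way. In the same order of arrays, Fabp7 read 5345.2 and 8475, Pmp22 890.1 and 1726.7, and Mbp 1202.6 and 1583.4. Erbb3 read 4981.3 and 5236.8, and Gfap 470 and 496.5. Higher on the first array were Sox10 (3157.2 and 2500.9), Npy (1395.7 and 1132.1), Mag (473.6 and 339.1) and S100b (813.6 and 809). Among the 10 tested glia genes 7 were lower in Ccl3-/- after carrier, as were 52.1% of all probe sets. The medians were -0.47 and -0.03, and none of the glia genes passed the adjusted threshold. Cnp, a gene of myelinating glia, was too dim to test (45.5 to 167.4). The 17 fibroblast and matrix genes summed to 44917.8 to 71601.1, with C57BL/6 carrier replicate 1 at 56430.1 and Ccl3-/- carrier replicate 1 at 54527.3. The 10 olfactory neuron genes summed to 51769.3 and 70742 on those arrays, within a range of 35610 to 73990.7. The 20 macrophage genes summed to 32713.5 to 51585, the 8 sustentacular and gland genes to 110607.5 to 200852.6 and the 17 endothelial and mural genes to 29779 to 51270.9, and C57BL/6 carrier replicate 1 was the lowest array for these 3 sums. Bright genes weighed on them, and not all genes were low there. Lyz2 read 4423.1 there against 7686.8 to 13304.1 elsewhere, Lcn3 92.4 against 11525.7 to 41632, and Tagln 4443 against 6183.5 to 16668.5. The macrophage genes C1qc, at 8108, and Itgax, at 771.1, were highest there. Krt18 read 25485.1 there, within a range of 17032.7 to 29220.1. The 8 bone and cartilage genes summed to 3667.3 to 7149.2, the 12 skeletal muscle genes to 2416.5 to 4088.5 and the 9 liver and plasma protein genes to 3147.1 to 15499.2, with that array within each range. The part of these cells in the members' levels was not tested. In such whole-tissue RNA, fewer cells of a type and less RNA per cell cannot be told apart.

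Taking the brightest tested probe set of each gene, Igfbp2 and Igfbp4 (101571_g_at) ran most alike, at a Pearson r of 0.90 over 8 arrays. Over the 7 without C57BL/6 carrier replicate 1 it was 0.94. Igf2 and Igfbp6 followed at 0.87 and 0.80. The other tested Igfbp4 probe set (94222_at) was not used here, and it correlated with 101571_g_at at r = 0.38. The Igfbp2 and Igfbp6 pair fell from 0.68 to 0.44 without that array. Igfbp3 gave r from -0.26 to 0.14 with the others over 8 arrays. Over the 7 without that array it gave -0.76 with Igfbp2, -0.58 with Igfbp4, -0.54 with Igf2, -0.25 with Igfbp6 and 0.04 with Igf1. These points share array quality and scaling, and the values are given as a description. Among all tested genes with one symbol, the most like Igf1 were Sprr2e (r = 0.98) and Ldb1 (0.95), and the most like Igf2 were Wdr48 (0.97) and Pigt (0.96). For Igfbp2 they were Irf3 (0.97) and Cct6a (0.96), and for Igfbp4 Spdef (0.95) and Adam5 (0.94). For Igfbp3 they were Degs1 (0.99) and Actn1 (0.97). For Igfbp6 they were Mrpl43 (0.98) and Apoe (0.97), and Apoe was the glia marker with the highest level above.

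Receptors and their intracellular partners were measured by 17 of 21 listed genes, of which 12 were tested and none passed the adjusted threshold in any comparison. Igf1r, the receptor of both ligands, read 6796.2 and 2494 with carrier in C57BL/6, 3199.7 and 2230.8 with carrier in Ccl3-/-, 4081.5 and 3310.3 with CCL3 in C57BL/6, and 2122.1 and 3415.6 with CCL3 in Ccl3-/-. Its highest value was again on C57BL/6 carrier replicate 1, and the averaged genotype difference was -0.52 ± 0.31 (adjusted p = 0.808), or -0.17 without that array. Igf2r, the clearance receptor of IGF2, ranged from 2052.6 to 3592.3, and its differences lay within -0.30 to 0.31 with all arrays. Insr, the insulin receptor, was too dim to test (68.2 to 308.7). Akt2, a kinase downstream of the receptor, read 1075.1 and 779.6 with carrier in C57BL/6, below the other 6 arrays at 1398.5 to 2802.6. Its genotype difference after carrier was 1.15 ± 0.35 (adjusted p = 0.375), and CCL3 minus carrier in C57BL/6 was 1.16 ± 0.35 (adjusted p = 0.911), with C57BL/6 carrier arrays in both. With one array left out these ran from 0.94 to 1.36 and from 0.81 to 1.51 for Akt2. The interaction was below 0 for 11 of the 12 tested signalling genes and for 47.3% of all probe sets, with medians of -0.38 and 0.04. Without C57BL/6 carrier replicate 1 it was below 0 for 8 of 12, with a median of -0.39.

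Carriers and proteases of IGFBPs were measured by 16 of 18 listed genes, of which 10 were tested and none passed. Mmp3, stromelysin, a matrix protease that also cuts IGFBP3, read 1015.7 and 338 with carrier in C57BL/6 and 1120.1 and 411 with carrier in Ccl3-/-. With CCL3 it read 104.3 and 219.1 in C57BL/6 and 134.3 and 154 in Ccl3-/-. All 4 CCL3 arrays lay below all 4 carrier arrays. The CCL3 values were all under the filter for dim values, so Mmp3 was tested only because its carrier values were high. The averaged difference was -1.57 ± 0.38, with a limma p of 0.00216 before and 0.967 after adjustment. Leaving out one array gave -1.90 to -1.23, and leaving out replicate 1 of both carrier groups gave -0.92. In C57BL/6 alone it was -1.45 ± 0.54, and -0.77 without carrier replicate 1. Plg, the plasmin precursor (161626_f_at), read 502.5 and 1162.2 with carrier in C57BL/6 and 366.8 and 188.7 in Ccl3-/-, a genotype difference of -1.24 ± 0.40 (adjusted p = 0.375). Its highest value was on C57BL/6 carrier replicate 2, where Igfbp1 and the fibrinogen genes, made like Plg mainly by liver, were also highest, and leaving out that array gave -0.71 for Plg. Klk1, a tissue kallikrein whose family members share sequence, had an averaged CCL3 difference of 0.73 ± 0.27 (adjusted p = 0.969), and 0.44 without Ccl3-/- CCL3 replicate 1. Of the growth hormone axis, 9 of 13 listed genes were on the array, 6 were tested and none reached even an unadjusted p of 0.05.

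The CCN genes encode matrix proteins with a domain like that of the IGFBPs. All 5 on the array were tested, and none passed the adjusted threshold. For CCL3 minus carrier averaged over genotypes all 5 were below 0, as were 48.4% of all probe sets. The medians were -0.54 and 0.01. Without C57BL/6 carrier replicate 1, 4 of 5 were below 0, with a median of -0.49. Ccn2, connective tissue growth factor, read 8274.8 and 2061.9 with carrier in C57BL/6, 6659.5 and 8205 with carrier in Ccl3-/-, 2260.5 and 2629.4 with CCL3 in C57BL/6, and 2187.6 and 3866.5 with CCL3 in Ccl3-/-. Of the carrier arrays, 3 of 4 lay above all CCL3 arrays and C57BL/6 carrier replicate 2 lay below them. The averaged difference was -1.03 ± 0.38 for Ccn2, -0.97 ± 0.34 for Ccn5 and -0.54 ± 0.24 for Ccn1, each with an adjusted p of 0.969. Ccn5 and Ccn1 exceeded the filter for dim values on carrier arrays only, and read at most 259.5 and 351.7 with CCL3. They were therefore tested only because their carrier values were high. The count of 5 below 0 includes both, and the median of -0.54 is the Ccn1 value. For Ccn2 the average was -0.54 without C57BL/6 carrier replicate 1, and the difference in C57BL/6 went from -0.74 to 0.23. For Ccn5 and Ccn1 the averages without that array were -0.94 and -0.49. Ccn2 and Igfbp3 (95082_at) correlated at r = 0.88 over the 8 arrays. That pair, and these 3 CCN genes, were chosen after their values were seen.

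**Figure D4:**
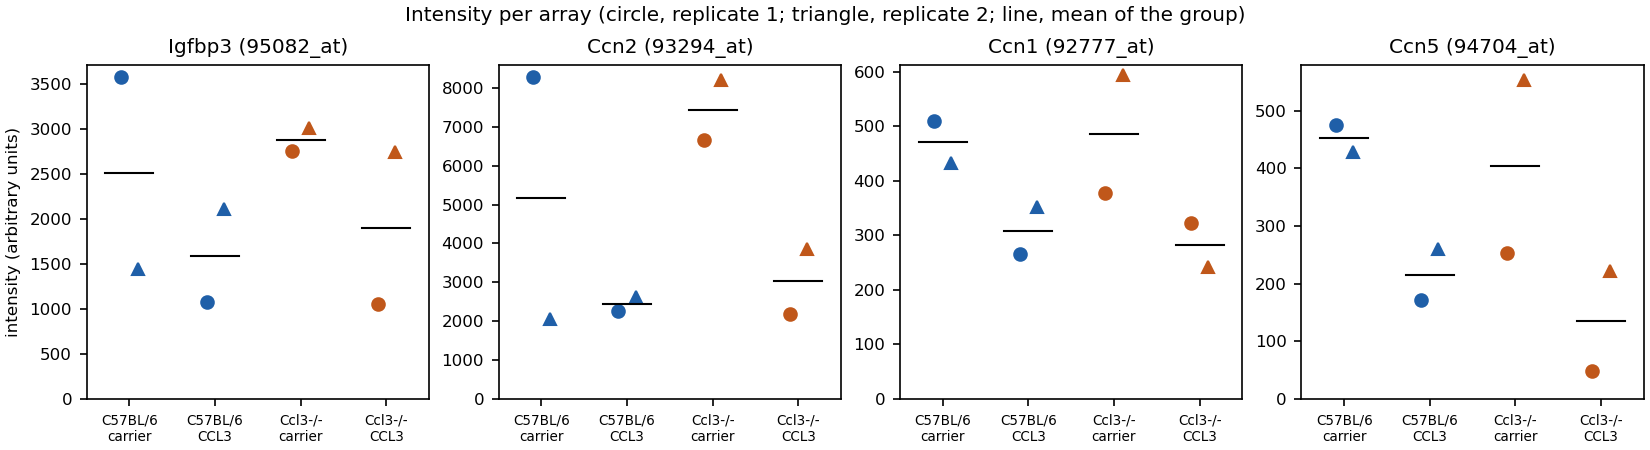
Intensity in arbitrary units on linear axes from 0 for Igfbp3 (95082_at), Ccn2, Ccn1 and Ccn5 by group; circles are replicate 1, triangles replicate 2 and lines the mean of 2 arrays. Ccn2 reads 6659.5 to 8274.8 on 3 of the 4 carrier arrays and at most 3866.5 with CCL3, while Igfbp3 on C57BL/6 carrier replicate 2, at 1447.7, lies within the range of its CCL3 arrays.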

How the data were processed

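RNA of mouse olfactory mucosa was measured on 8 single-colour arrays, grouped by title. The table holds intensity values on a linear scale as the authors deposited them. The software is not given in the sources used here. Means after trimming 2% at each end lay within 0.00834% of each other, so values were not scaled again. Of 12488 probe sets, 10855 had 1 gene symbol, 396 several and 1237 none. Values were analysed as log2(value + 102.3, the 20th percentile). Probe sets with at least 2 arrays above 362.7 (the 40th percentile) were tested, and 66 control probe sets were left out. limma 3.58.1 (R 4.3.3) fitted all 4 groups with an intensity trend, 4 residual degrees of freedom and Benjamini-Hochberg adjustment over 8150 probe sets. Genotypes were compared after each injection and injections within each genotype; with the interaction and both averages this made 7 comparisons. All member probe sets were named, and each gene's 2 most alike genes were named by rule. From the receptor and protease lists, the genes with an unadjusted limma p under 0.05 in any comparison were described. The receptor genes Igf1r, Igf2r and Insr were named whatever their p. Members and lists were chosen with earlier results of these data known. The fit was tested on simulated data. Alternatives were other normalizations, pseudocounts, filters, thresholds, samples in the fit, a replicate block and each array left out. Same-numbered arrays did not deviate together (correlations from -0.16 to 0.18), and the main fit did not pair arrays by number. Low correlations cannot exclude that same-numbered arrays were handled together, which is not labelled. Figures were drawn with matplotlib 3.10.9.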

Additional observations from a re-analysis of the deposited data

How the results depend on the processing

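No member probe set passed an adjusted p of 0.05 under any alternative. Counts over all probe sets, 0 in each comparison as reported, changed as follows. With the replicate number as a block, 1 probe set passed for genotype after carrier, 1 for the genotype average and 1 for the CCL3 average; the block changed the sign of none of 63 member differences. With only the groups compared in the fit, 1 passed for genotype after CCL3; that setting has no form for the interaction or the averages. At an adjusted p under 0.1, 1 passed for the genotype average. Leaving out both carrier arrays of replicate 1, chosen after seeing the data, gave 1 for genotype after CCL3, 7 for CCL3 in Ccl3-/- and 1 for the CCL3 average. Leaving out each array in turn gave 0 to 110 for genotype after carrier, 0 to 1 after CCL3, 0 to 1 for CCL3 in Ccl3-/-, 0 to 73 for CCL3 in C57BL/6, 0 to 1 for the genotype average, 0 to 23 for the CCL3 average and 0 for the interaction. The counts of 110, 73 and 23 came without C57BL/6 carrier replicate 2. The cause was not tested.

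Of 63 member differences, 0 to 3 changed sign under another normalization, pseudocount, floor or trend. Each array left out changed 4 to 14, and both carrier arrays of replicate 1 together 17. A stricter filter left 56, since the dimmer Igf1 probe set (95546_g_at) no longer passed. Its CCL3 difference in Ccl3-/- ran from 0.89 to 2.14 with one array left out, and that of Igf2 from 0.49 to 0.71. The Igfbp2 genotype difference after carrier ran from -0.93 to -0.46 with one array left out and was -0.23 with both carrier arrays of replicate 1 out. Where a group is left with 1 array, that array is assumed to vary like the others. With 2 arrays a group, small differences could not be told from the spread, and dim probe sets near background are understated. The values of receptor, protease and CCN genes, and the counts of direction, with arrays left out were computed as alternatives chosen after seeing the data.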

Other observations

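Igfbp1, an IGFBP made mainly by liver, was too dim to test but stood out on a single array. Its probe sets read 539.7 (103896_f_at) and 557 (103897_r_at) on C57BL/6 carrier replicate 2, against 13.8 to 129.6 and 17.3 to 59 on the other 7 arrays. The fibrinogen genes, also made mainly by liver, were highest on the same array: Fga read 1322.5 against 20.9 to 227.8 elsewhere, Fgb 260 against 10.2 to 18.3, and Fgg 187.8 against 11.4 to 119.7. Alb, serum albumin, read 1301.2 there, 1045.5 on C57BL/6 carrier replicate 1 and 171 to 476 on the other 6. Ttr, at 648.3, and the dim Apoa2 probe sets, at 179.9 (161924_f_at) and 262.1 (99648_at), were also highest on C57BL/6 carrier replicate 2. Hp, Ahsg and Apoa1 of the liver and plasma protein list were not highest there. Hp, haptoglobin, read 3745.4 there and up to 14339.4 on C57BL/6 CCL3 replicate 2, Ahsg read 676.6 there and 1507.7 on Ccl3-/- carrier replicate 2, and Apoa1 was highest on C57BL/6 carrier replicate 1, at 469.6 against 444.3. The 9 genes of that list summed to 8848.2 on C57BL/6 carrier replicate 2, within a range of 3147.1 to 15499.2. Igfals, which holds the circulating IGF complex together, stayed dim, at 13.6 to 88.7 (162450_f_at) and 90 to 234.4 (97987_at). These genes were chosen after their values were seen. Leaving out that array moved the counts of called probe sets given above.

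Among the 3 probe sets of Igfbp4, one (101570_at) never exceeded 205.7 while the others were bright on all arrays. The 2 probe sets of Igf2 differed likewise, 98622_at at 23.5 to 134.5 and 98623_g_at at 7549.8 to 14282.9.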
